A study of Mus musculus with 50 samples.

Results

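The chromosome 12 variants that flank the antibody heavy chain locus Igh and were called in at least 2 tumours are described here. The rule took variants with 1 alternate allele between positions 95000000 and 121000000 of the mm10 build, left out Igh itself (113258768 to 116009954), and kept those carried by at least 2 tumours. It found 417 variants of the 25624 in the table, 369 on the centromere side of Igh (proximal) and 48 on the telomere side (distal). The members were thus chosen by position and number of carriers, so these are given as a description with no test.

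The calls come from exome sequencing of tumours in the mesenteric lymph node, each from a separate IL6Myc mouse and labelled as malignant plasma cells. The study labels 45 such tumours and, as controls, 5 kidneys from Balb/c wild-type animals. Values of 44 tumours were used; tumour 4 and kidney samples are not analysed here. Tumours 1, 2 and 3 stood apart across the genome: 241, 192 and 277 widely shared variants (in over 22 tumours) were called in them on other autosomes, against 957 to 1214 in the other 41 tumours. Results on read share are therefore given with and without these 3 tumours. IL6Myc names a mouse model of multiple myeloma, a cancer of antibody-secreting plasma cells, after interleukin 6 and Myc. The labels give no strain, age, promoter or insertion site for either transgene, and plasma cell markers cannot be read from DNA. Each value is a read share, the percent of a site's reads showing the alternate allele. Read depth is unknown, so no interval is set around a single share, and a missing call can mean the reference allele or too few reads.

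As background, an inherited stretch of chromosome from another strain appears as a run of linked variants that share carriers and edges, and recombination between generations shortens it. A heterozygous variant gives about equal numbers of reads from both alleles. In published descriptions of the IL6Myc model, though not in the labels, Myc is inserted into Igh, and breeding such an allele into a strain keeps neighbouring sequence with it. Igh rearranges and mutates in B cells, so reads there are hard to place. The table holds no read across an insertion, so no link to a transgene could be tested. A stretch identical to the reference genome leaves no call.

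The sequences below show members with a changed base near a start annotated for the gene, the only places with reference sequence at hand. They are RefSeq windows of GRCm38.p6, read 5′ to 3′ on the gene's strand, and the capital letter is the changed base. Of the 417 members, 6 lay in such a window, and the reference base in the table matched RefSeq in all 6.
Macc1 reference, chr12:119443431-119443459, plus strand: tattgttggccacgagaaattggtcGaag
Macc1 variant: tattgttggccacgagaaattggtcAaag
Clmn reference, chr12:104865276-104865304, minus strand: ctgcgacccccctgTgcctcatcattgtg
Clmn variant: ctgcgacccccctgCgcctcatcattgtg
Atxn3 reference, chr12:101958241-101958269, minus strand: cgagaggcacgtggCtagggcggggcgga
Atxn3 variant: cgagaggcacgtggTtagggcggggcgga
Nrde2 reference, chr12:100159733-100159761, minus strand: accctttgggtctcCgcaccgccttgccc
Nrde2 variant: accctttgggtctcTgcaccgccttgccc
Psmc1 reference, chr12:100110104-100110132, plus strand: tccgtagcctgtttTtttttttttttttt
Psmc1 variant: tccgtagcctgtttGtttttttttttttt
Gm36375 reference, chr12:100495243-100495271, minus strand: gtgagtgccctcccCctccaccaccaccc
Gm36375 variant: gtgagtgccctcccActccaccaccaccc
The Macc1 base lies in the coding sequence and is the p.Arg16Gln change described below, carried by 44 tumours. It lies 47 bases inside the annotated start used, but far from the start of the gene's RefSeq span at 119390398. As the change is at coding base 47, the start used lies next to the start codon. The Clmn base lies 214 bases upstream of the start and had 35 carriers. The Atxn3 base, 12 bases upstream of the annotated start used, had 19 carriers. The Nrde2 base, 98 bases upstream of the start used, had 17. Both genes are on the minus strand, with RefSeq spans that reach to 101959121 and 100160414. Both bases thus lie inside the gene's span and not upstream of the whole gene. The base near Psmc1, a proteasome ATPase gene, lies 84 bases upstream and had 37 carriers. It is annotated as intergenic and lies within a long run of T, and the accuracy of this call was not tested. The Gm36375 base lies just inside the start, is annotated as intronic and had 42 carriers. Median read shares of the 6 variants ran from 49.6% for Macc1 to 54.9% for Gm36375.

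Most members were carried by most tumours. Of the 417, 257 (61.6%) were carried by over 22 tumours and are termed widely shared, and 160 were rarer. Among all variants of the table in at least 2 tumours, 11.9% were widely shared. The rule took an interval already known to be widely shared, so nothing is read from that contrast. The widely shared members fell into a proximal segment of 223 variants from 98099363 to 104946470 (6.85 Mb) and a distal segment of 32 variants from 118299284 to 119877083 (1.58 Mb). The proximal segment ended 8.31 Mb before Igh, and the distal one began 2.29 Mb after it. Between them lay only 2 widely shared variants, both on the proximal side, in Mirg and Tmem179.

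**Figure D1:**
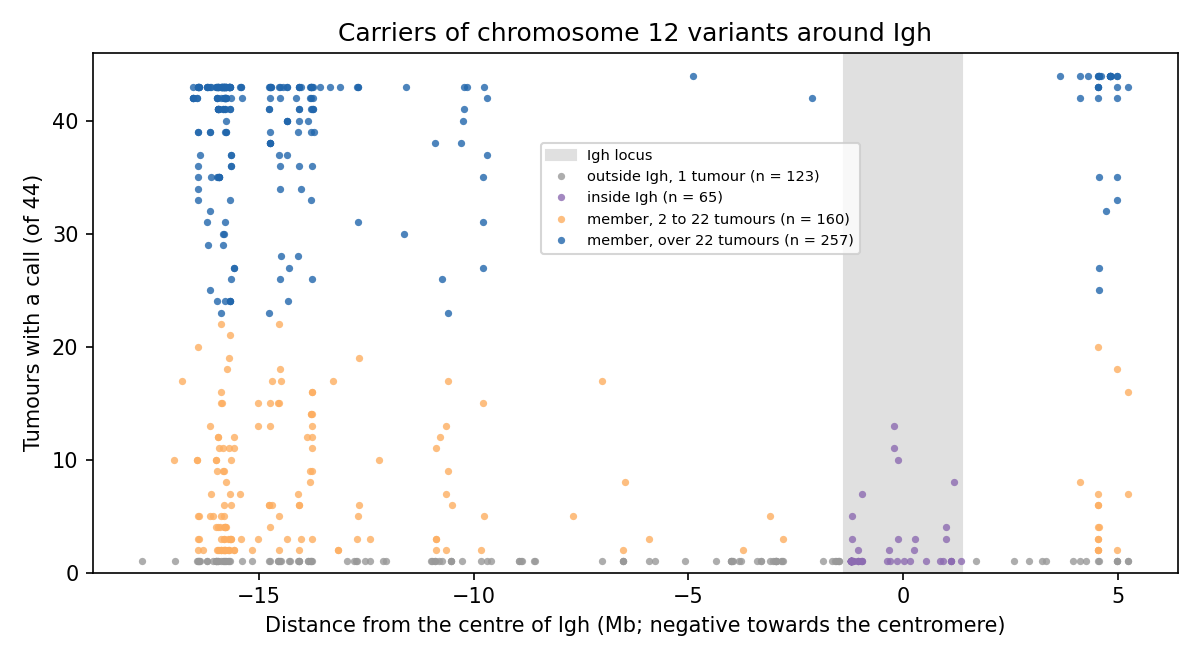
Number of tumours with a call (of 44) for each chromosome 12 variant, against distance in Mb from the centre of Igh (grey band). Widely shared members (blue) form a proximal group of 223 and a distal group of 32, with 2 variants between them, and the most widely carried variant inside Igh had 13 carriers.

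Runs of widely shared variants reached, or nearly reached, both ends of the proximal segment in all carriers. Runs were taken per tumour between the outermost windows of 5 neighbouring widely shared variants with at least 4 called. Among the variants of the proximal segment, 43 tumours had such a run. It began at 98099363 in 41 of them and at 98099968 at the latest, in intergenic sequence before Galc (98202287 to 98259459). It ended at 104946470, in an intron of Syne3, in 37 tumours, and at the earliest at 104471775, in an intron of Gsc. Run length went from 6.37 to 6.85 Mb. As only widely shared variants were used, the outer edges are largely set by that choice. A run could come out shorter than the segment but not longer. Whether some tumours carry a longer stretch could therefore not be seen from these edges. With the variants in Mirg and Tmem179 included, the run reached 112504706 in 41 tumours and 109742543 at the earliest. Windows count variants and not distance, so this longer run crosses stretches without any widely shared variant, as from 104946470 to 109742543. It does not show a continuous stretch.

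Sparse capture limits how closely the centromere edge can be placed. Only 1 protein-coding gene of RefSeq, the neuronal guidance gene Flrt2 (95692006 to 95785215), starts between 95000000 and the segment. That stretch held 4 variants, 2 of them members, at 97663596 with 10 carriers and at 97845208 with 17. From the centromere to 95 Mb, 486 protein-coding genes start, with no widely shared variant. All 44 tumours had the distal run, which began in each at 118299284, in the transcription factor gene Sp4, and ended at 119877083 in 41. It ended at 119610715 at the earliest. The distal run was also taken over widely shared variants only, so its outer edges have the same limit. No calls were made beyond 119877083, where 1 further protein-coding gene, Tmem196 (119946127 to 120021242), starts.

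The stretches between the segments were poor in shared variants although calls were made there. Between the proximal segment and Igh, where 95 protein-coding genes start, 2 variants were widely shared, 8 were rarer and 42 were called in 1 tumour. In the proximal segment 80 genes start, with 223, 134 and 64 variants of these kinds. That is 2.79 widely shared variants per gene against 0.0211, and 0.8 single-tumour variants per gene against 0.442. Between Igh and the distal segment, where 10 genes start, 5 variants were called, each in 1 tumour. Inside Igh 65 variants were called, 51 in 1 tumour and 14 in more, all 14 annotated as intergenic and none in over 13 tumours. Whether these stretches match the reference or were removed by a filter of the authors cannot be told apart.

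Of the 44 tumours, only tumour 3 lacked the proximal segment. Tumours 1 and 2, which like tumour 3 had few widely shared calls on other autosomes, carried 83.9% and 89.7% of the segment's 223 widely shared variants. Tumour 3 had none of them, whereas each of the other 43 tumours had between 83.4% and 97.3% of them (median 91.5%). Tumour 3 had 1 of the 134 rarer variants of the segment, an intergenic one at 100744890, against 12 to 51 in the other tumours (median 22). On the distal side it resembled the rest, with 29 of 32 widely shared and 2 of 16 rarer variants. The other tumours carried 0 to 6 of those rarer ones (median 2), and the distal share of widely shared variants called ran from 75% to 100% over all 44 tumours (median 95.3%).

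**Figure D2:**
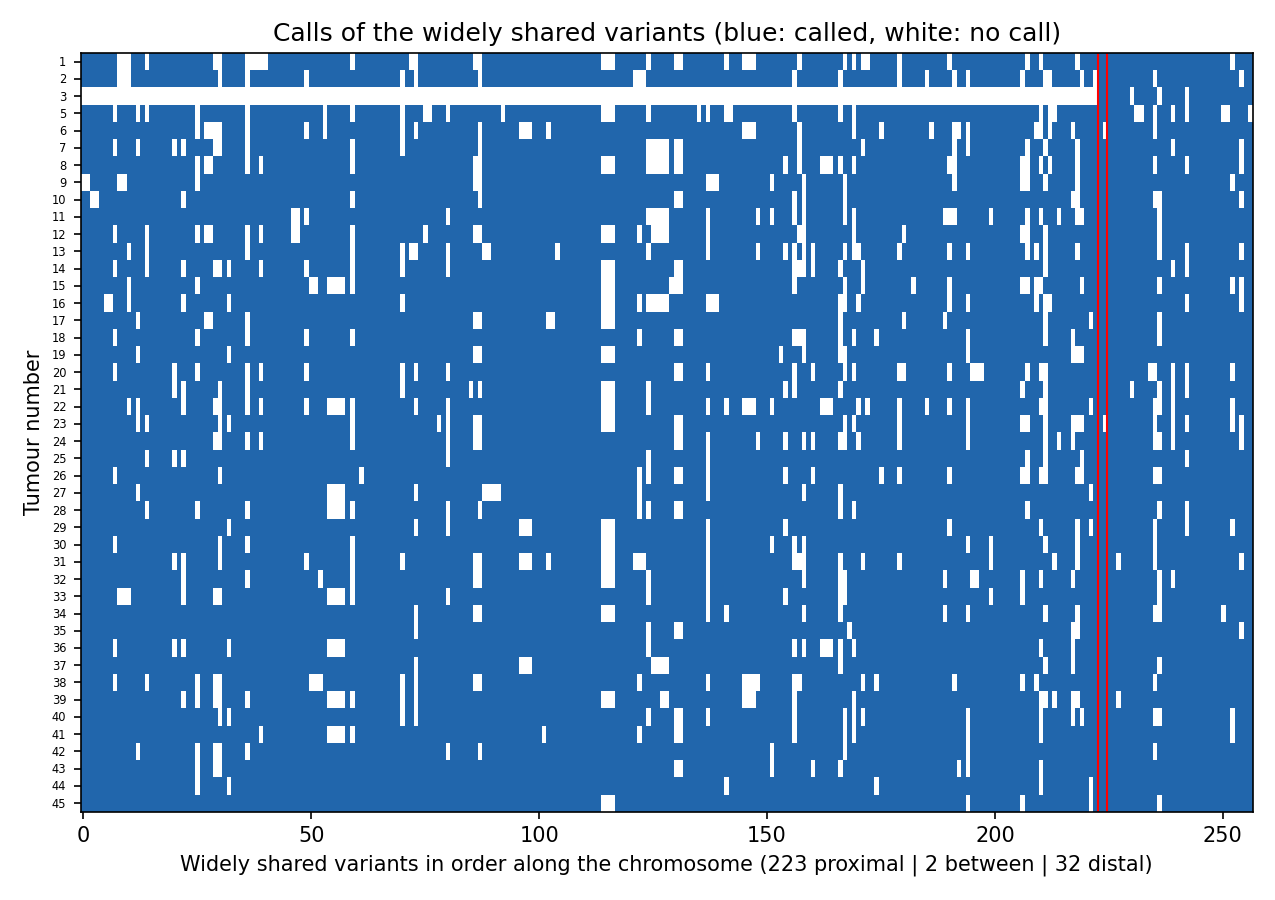
Calls of the 257 widely shared variants (columns, in order along the chromosome) in 44 tumours (rows); blue marks a call and white no call, and red lines separate 223 proximal, 2 intermediate and 32 distal variants. Tumour 3 is blank over the 223 proximal variants and filled over the other variants but 3, while gaps elsewhere are scattered over tumours.

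The variants in Mirg and Tmem179 went with the distal side in tumour 3. Mirg is a non-coding gene that hosts microRNAs in the imprinted Dlk1-Dio3 domain, and Tmem179 encodes a membrane protein. All 44 tumours had the intronic Mirg variant at 109742543, at 38.89% in the lowest, 51.8% in the median and 61.6% in the highest tumour. The intronic Tmem179 variant at 112504706 had 42 carriers, with 20% as the lowest, 50.0% as the median and 72.2% as the highest share. Tumour 3 had both, so its first widely shared variant lay 4.8 Mb beyond the end of the segment it lacked. Thus, by calls in tumour DNA, 43 tumours had both segments and 1 had the distal segment alone. Whether this difference was inherited was not tested. As all tumours had the distal segment, its linkage with the proximal one, with Igh or with a transgene could not be measured from carriage.

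The Mirg variant lies close to a microRNA. The hairpin of miR-541 spans 109742409 to 109742498 on the plus strand, and the variant is 45 bases beyond its end. No member lay inside any of the 92 chromosome 12 hairpins of the RefSeq table. The mature miR-541 sequences nearest to it, with the seed (bases 2 to 8) in capitals, differ in seed.
mmu-miR-541-5p: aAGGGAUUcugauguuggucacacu
mmu-miR-541-3p: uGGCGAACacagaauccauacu

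Protein-altering members were few. Of the 417 members 18 (4.32%) altered a protein by the deposited annotation, 17 by missense changes and 1 at a splice acceptor, in 10 genes. Among 12502 other variants in at least 2 tumours the share came to 7.05%. The missense to synonymous ratio stood at 0.436 (17 to 39) against 0.550 (790 to 1436). Linked variants are not independent, so these shares are a description with no test. In 7 of the 10 genes the protein-altering members were widely shared.

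On the proximal side, Galc encodes the lysosomal enzyme galactosylceramidase. Its p.Ser289Gly change at 98234285 had 43 carriers, all but tumour 3, from 43.4% to 61.5% with a median of 50.4%. Galc held 24 members in all, 16 of them widely shared, with 3 synonymous and 17 intronic variants. A splice region variant at 98227302 also had 43 carriers, with a median share of 46.2%.

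Spata7, a gene needed for the connecting cilium of photoreceptors, carried 3 missense changes. p.Ile54Val at 98634289 had 43 carriers, with 29.4% as the lowest, 40.3% as the median and 62.9% as the highest share. p.Thr276Lys at 98659570 had 42, from 21.95% to 59.7% with a median of 43.8%. p.Ala315Pro at 98662041 had 43, from 36.1% to 59.5% with a median of 49.3%. Of the 13 widely shared missense changes, p.Ile54Val had the lowest median share.

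Other proximal missense changes lay in a phosphatase, a DNA repair enzyme and a serpin. Ptpn21, a cytosolic tyrosine phosphatase gene, carried p.Gly324Asp at 98693579 in 41 tumours, from 27.7% to 65.2% with a median of 48.9%. Tdp1, whose enzyme removes stalled topoisomerase from DNA, carried p.Asn223Lys at 99898270 in 38 tumours, from 23.4% to 60% with a median of 41.9%. Serpina3k, a serine protease inhibitor gene, carried p.Ile15Val at 104340553 in 38 tumours, from 39.4% to 55.1% with a median of 48.7%. Apart from tumour 3, carriers without a call differed from gene to gene: tumours 15 and 38 for Ptpn21, 1, 6, 22, 38 and 39 for Tdp1, and 2, 5, 6, 8 and 16 for Serpina3k.

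On the distal side, all widely shared missense changes lay in Itgb8 and Macc1. Itgb8 encodes integrin beta 8, which pairs with integrin alpha v and activates TGF-beta. Its p.Arg140His change at 119192297 had all 44 tumours as carriers, from 36.4% to 61.4% with a median of 48.2%. Its p.Ala652Val change at 119166817 had 43, all but tumour 5, from 33.3% to 63.8% with a median of 45.8%. Itgb8 held 24 of the 48 distal members, 13 of them widely shared.

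Macc1, a gene tied to MET receptor signalling and metastasis, held 7 members, each in all 44 tumours: 4 missense and 3 synonymous. The share of p.Arg16Gln at 119443456 ran from 34.2% to 63.0%, that of p.Pro442His at 119446823 from 40% to 65.1%, that of p.Ser775Phe at 119450414 from 28.6% to 65.3%, and that of p.Met783Thr at 119465464 from 34.9% to 63.9%. The means were 48.6% ± 6.95, 51.1% ± 5.19, 47.3% ± 9.02 and 50.1% ± 6.86 (SD, n = 44). The 4 changes overlapped throughout, and no tumour lacked any of them. Sp4 and the transporter gene Abcb5 each carried 1 further variant in all 44 tumours, synonymous in Sp4 (median share 49.3%) and intronic in Abcb5 (50.3%).

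**Figure D3:**
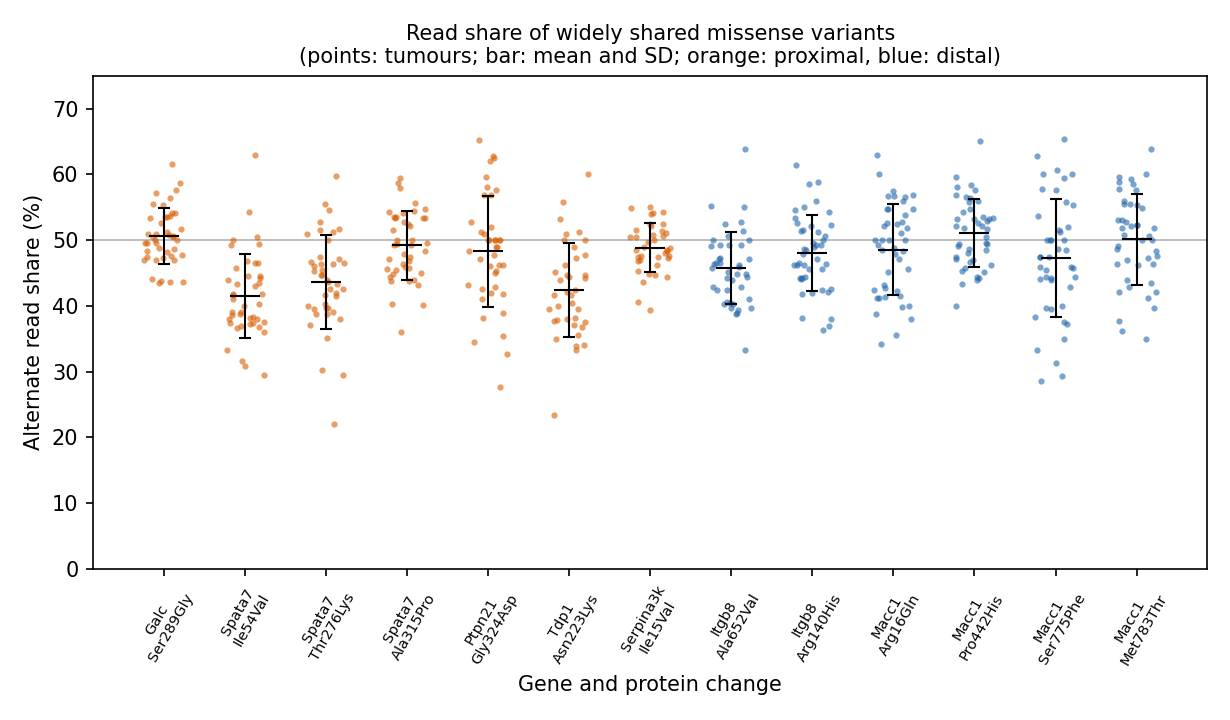
Alternate read share in percent of the 13 widely shared missense variants, with 1 point per tumour with a call (38 to 44 tumours) and the mean and SD as bars; orange marks proximal and blue distal genes. Shares spread around 50%, with Spata7 p.Ile54Val (mean 41.5%) and Tdp1 p.Asn223Lys (42.5%) the lowest.

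The 5 rarer protein-altering members had 2 to 9 carriers. 9030617O03Rik carried p.Ser80Pro at 100835325 in 9 tumours, from 22.2% to 58.1% with a median of 45.0%. Serpina1d, of the alpha-1 antitrypsin family, carried p.Ile402Leu and p.Thr398Ser in the same 3 tumours, 10, 17 and 18. Shares there were 97.7%, 97.0% and 93.3% for the former and 97.8%, 97.2% and 94.1% for the latter. Calls of p.Lys193Glu were made in tumour 9 at 11.8% and in tumour 34 at 12.5%. The Serpina1 genes are near-identical copies, so reads may be placed on the wrong copy and these calls are uncertain. Serpina1b and Serpina1c, of the same family, each held 1 widely shared variant, with median shares of 32.5% and 38.8%.

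Eif5, which encodes a translation initiation factor, carried a deletion of 113 bases in 5 tumours, annotated as a splice acceptor variant (c.72+3_74del). Its shares in tumours 1, 9, 16, 27 and 43 were 16.9%, 12.05%, 20.7%, 17.7% and 16.7%, all below the lowest median share of any widely shared member, 31.25%. By the notation, as many exon bases are lost as intron bases are kept, so the deletion has the length of the intron. It is counted as protein-altering by the annotation alone. The position given in the table has the same length of 113 bases but places the ends differently. By position the deleted bases run from 111539686 to 111539798, and the bases shown follow that placement, with the first GT in capitals.
Eif5 deletion, first bases: agGTaatgctggtttttattttag
Eif5 deletion, last bases: aaaattgaaattcttatttccttt
No measurement here bears on the protein.

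Most other members were intronic. By annotated effect 286 members were intronic, 46 intergenic, 39 synonymous, 10 in a 3′ UTR and 9 in a splice region. Eml5, a microtubule-associated protein gene, held the most, 60 members with 39 widely shared. Among them, a deletion of 8 bases in a splice region, at 98792011, had 43 carriers at a median share of 51.1%. Ttc8, a subunit gene of the ciliary BBSome, held 36 members with 22 widely shared. 9030617O03Rik held 26, Ptpn21 23, and Kcnk10, a potassium channel gene, and Zc3h14, a gene for an RNA-binding protein, 17 each.

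Of 191 protein-coding genes that start in the interval outside Igh, 24.1% had a member, 18.8% a widely shared one and 5.24% a protein-altering one. Of 30 listed genes of B cell, plasma cell and myeloma biology in the interval, among them Traf3, Akt1, Tcl1 and Dicer1, 4 had a member, including Eif5 with 1, the kinase gene Rps6ka5 with 16 and the lysosomal protease gene Lgmn with 1. In Rps6ka5, 11 members were widely shared, none with a protein change. Of 13 listed distal neighbours 4 had a member, and all 4 had a widely shared one. Of 21 serpin genes 10 had a member, 6 a widely shared one and 2 a protein-altering one. These counts were not tested against the share over the interval.

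The substitutions resembled those of other shared variants. Of 343 single-base members 72.9% were transitions, against 70.9% of 10043 other shared substitutions. C>T made up 36.7% and T>C 36.2% of members, against 39% and 31.9%. The rest of the members, 74, were insertions or deletions.

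Read share, which the rule did not use, lay near 50% on both sides. The median share per tumour over widely shared members averaged 49.2% ± 2.12 on the proximal side (SD, n = 44), with 46.97% as the lowest, 48.8% as the median and 57.1% as the highest tumour. On the distal side it averaged 49.4% ± 2.85, with 46.15%, 48.7% and 59.2%. Of the 257 widely shared members, 249 had a median share between 40% and 60%. In tumour 3 the proximal value rests on the Mirg and Tmem179 variants alone.

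Over all 44 tumours the proximal share lay slightly below an even split, a call that 2 alternative settings ended, and the remaining contrasts of the sides did not pass. The proximal share lay below 50% in 31 of 44 tumours and above it in 5, by -0.79 percentage points on average (two-sided sign-flip permutation test, p = 0.0166, adjusted p = 0.0331 over 8 tests). With calls under 20% left out the permutation adjusted p rose to 0.053. Without tumours 1, 2 and 3 the difference came to -0.73 points (permutation adjusted p = 0.0669, n = 41), so the call did not hold under either setting. The distal share differed from 50% by -0.60 points (permutation adjusted p = 0.235), and without the tumours titled 1199 to 1293 by -0.96 points (adjusted p = 0.0204, n = 40). The proximal share minus the distal one averaged -0.19 ± 1.86 points (SD; permutation adjusted p = 0.499). Against widely shared variants of other autosomes in the same tumours, with a mean of 48.7% ± 1.79, the proximal share lay 0.52 points higher (adjusted p = 0.302) and the distal one 0.71 points higher (adjusted p = 0.235), by the same permutation test. Without tumours 1, 2 and 3 these differences came to 0.66 and 0.67 points (permutation adjusted p = 0.215 for both, n = 41), and the distal share differed from 50% by -0.71 points (adjusted p = 0.16).

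Read shares on both sides of Igh were correlated over tumours, in part through a few tumours with high shares. Across 44 tumours the proximal and distal medians correlated with Pearson r = 0.756 (permutation p = 1e-05, the smallest the resamples can give, adjusted p = 8e-05) and Spearman rho = 0.506 (permutation p = 0.0005, adjusted p = 0.002). Without tumours 5 and 22, the farthest from the proximal median, r fell to 0.521 (permutation p = 0.00099) and rho 0.431 (p = 0.00471). Without tumours 1, 2 and 3, r came to 0.793 (permutation adjusted p = 0.00016, n = 41). Tumours 5, 22 and 30 had high shares on both sides: 57.1% and 59.2% in tumour 5, 56.2% and 56.4% in tumour 22, and 53.85% and 54.8% in tumour 30. Their shares over widely shared variants of other autosomes were 48.2%, 48.4% and 47.2%. Among the other 41 tumours the proximal share did not exceed 51.5%, and the distal share reached 56.25%, in tumour 3. Departures were not limited to chromosome 12. The highest share over other autosomes was 57.9%, in tumour 35, which had 48.055% on the proximal and 51.28% on the distal side.

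**Figure D4:**
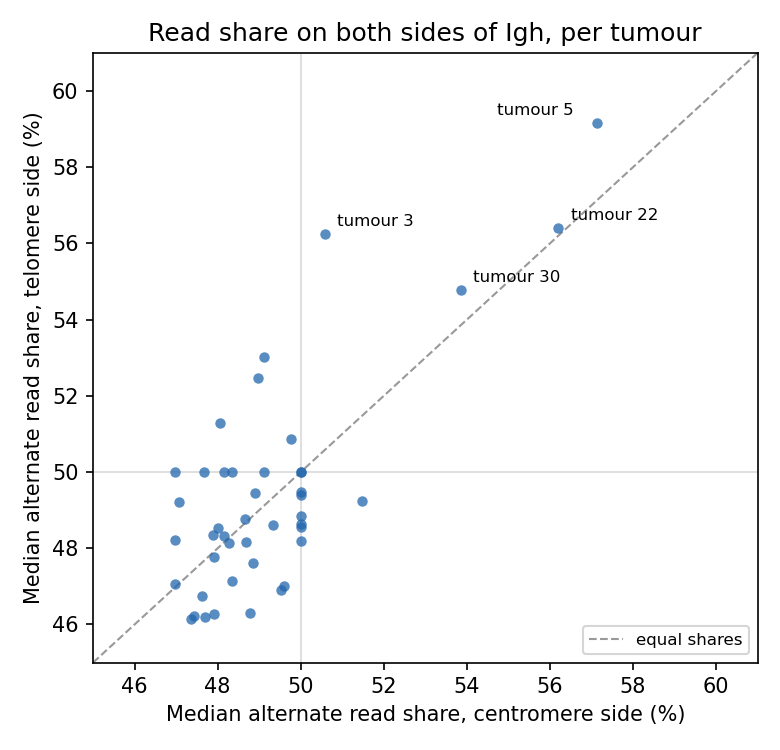
Median alternate read share in percent of widely shared members on the centromere side (horizontal) and telomere side (vertical) of Igh, 1 point per tumour (n = 44), with the line of equal shares. Tumours 5, 22 and 30 lie above 53% on both axes, and tumour 3, with 2 proximal variants, is high on the vertical axis only.

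The rarer members had somewhat lower read shares. Their median of medians came to 46.3% against 49.2% for widely shared ones, and 100 of 160 lay between 40% and 60%. Within tumours, widely shared members were higher by 1.63 ± 4.02 points (SD), in 27 of 44 tumours (sign-flip permutation test, p = 0.0105, adjusted p = 0.028). The difference came to 0.64 points with means in place of medians (permutation adjusted p = 0.406) and 0.63 without calls under 20% (adjusted p = 0.449, n = 43). It came to 1.45 points without tumours 1, 2 and 3 (permutation adjusted p = 0.0669, n = 41). The call thus did not hold under these 3 settings. The split is by number of carriers, which can itself depend on read share where calls at low share are missed. No conclusion is therefore drawn from this test. The 14 rarer members with a median under 25% include the Eif5 deletion and a synonymous Setd3 variant in 8 tumours at 9.58%. The 9 at 85% or more include 2 of the Serpina1d changes.

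Rarer members were not independent of each other. Of the 160, 32 had a neighbour within 100 bases with exactly the same carriers. At the limit of the rule, 33 members had 2 carriers, with a median of medians of 48.1%, and 123 variants of the same interval had 1 carrier, with a median share of 30.4%. A tumour carried 6 to 59 rarer members (median 25). The 4 tumours titled 1625 to 1628 carried 51 to 59, and the other 40 carried 6 to 46. Over rarer variants elsewhere in the table the same 4 tumours had 401 to 729 calls and the other 40 had 341 to 4095. Tests of the part that depth plays in this were not made.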

How the data were processed

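Per the labels' protocols, exons were enriched with a 50 Mb Agilent SureSelect mouse kit. The submitters' processing notes name GATK and mm10. The aligner, versions, filters, annotation tool and the role of the kidneys in calling are not given in these sources. The deposited table of the authors gives, per tumour, a percent of reads or a dot, and a count of tumours per row. The meaning of the percent was read from the values. Of 25823 rows, 199 with several alleles were left out. Tumours were numbered in accession order, and columns were matched by title.

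Computed here, in Python 3.11.15 with pandas 2.3.3 and NumPy 2.4.6, were medians per tumour, runs, and two-sided permutation tests with 100000 resamples and Benjamini-Hochberg adjustment over 8 tests, checked on simulated data. Protein-altering covers missense, frameshift and in-frame changes, gain or loss of a stop, loss of a start, and essential splice sites. Named genes are all those with a protein-altering member, those of 3 lists with one, and, picked with values in view, Eml5, Ttc8, Kcnk10, Zc3h14, Mirg, Tmem179, Sp4, Abcb5, Setd3, the upstream variants, Rps6ka5, Lgmn, Serpina1b and Serpina1c. Gene positions and sequences are from RefSeq GRCm38.p6, the assembly of mm10. A listed gene is not reported here. Members, segments and lists were chosen with earlier results of these data known. The alternatives were variant kind, carriers, read share minimum, mean for median, run windows and tumours left out.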

Additional observations from a re-analysis of the deposited data

How the results depend on the processing

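Of 77 values under alternative settings, 70 kept their direction and side of the threshold or stayed within their limit. With calls under 20% read share left out, the proximal share minus 50% was -0.77 points (permutation adjusted p = 0.053), and widely shared minus rarer members was 0.63 points (adjusted p = 0.449). With means in place of medians the latter was 0.64 points (adjusted p = 0.406). Without the tumours titled 1199 to 1293 the distal share minus 50% was -0.96 points (adjusted p = 0.0204), and the proximal minus distal share turned from -0.19 to 0.0355 points (adjusted p = 0.89). Without tumours 1, 2 and 3, added after seeing the data, the proximal share minus 50% was -0.73 points and widely shared minus rarer members 1.45 points (adjusted p = 0.0669 for both). The cause was not tested. Leaving out tumour 3, and taking proximal runs within the proximal segment only, were also added after seeing the data and changed no call. No paired analysis was possible because there is a single group of tumours and the labels give no shared replicate numbers. Depth is unknown, so missing calls cannot be told from reference alleles.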

Other observations

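Some rarer members were unevenly spread over the sample titles, a pattern chosen after the values were seen and not tested. The title groups also differed in rarer variants elsewhere in the table. Tumours titled 1199 to 1571 had 388 to 4095 such calls, and those titled 1587 to 1628 had 341 to 2368. The intergenic variant at 100744890, the only rarer variant of the proximal segment called in tumour 3, was carried by 12 of the 17 tumours titled 1199 to 1571 and by 0 of the 27 titled 1587 to 1628, at a median share of 45.5%. The intronic Tdp1 variant at 99945111 went the other way, with 1 of 17 and 16 of 27 carriers and a median share of 47.4%. The Nrde2 variant at 100159747, upstream of the start used but inside the gene's span, had 2 of 17 and 15 of 27 carriers.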
